A study of Mus musculus with 14 samples.

Results

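Complement components and regulators were followed in mouse aortic valves, as the 9 genes C1qa, C1qb, C1qc, C1ra, C1s1, C2, C3, C4b and Serping1. The genes were chosen by name, as the parts of the classical pathway up to C3 and its main inhibitor, and were found by symbol among the 56941 genes of the deposited count table. All 9 were among the 19145 genes tested, those whose counts averaged 10 or more. Bulk RNA sequencing covered the valve leaflets of 14 mice, with 4 untreated mice (Ctrl), 2 mice given LY272015 alone (LY), 4 mice infused with Angiotensin II (AngII) and 4 mice given both (AngII+LY). LY272015 is an antagonist of the serotonin receptor HTR2B, and the design asks what AngII does to the valve and what blocking this receptor changes. All mice were C57BL/6J wild-type males aged 8 weeks at the start and ate Breslow Western Diet, so no group is on normal chow. AngII was given at 1000 ng/kg/min by a minipump for 28 days, LY272015 was given at 3 mg/kg over the same time, and per the series' design text the AngII and AngII+LY mice were sampled 48 hours after pump removal, whereas the study's methods describe removal for a subset, so values of these groups may or may not include time after the infusion. The labels disagree on the injection schedule, and the treatment labels of 1 LY and 3 AngII+LY mice carry other compound numbers, so groups were taken from the sample titles.

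Complement is a cascade of plasma and tissue proteins that tags microbes, immune complexes and dying cells for removal. In the classical pathway the recognition molecule C1q binds its target and switches on the proteases C1r and C1s, which cleave C4 and C2 to build the enzyme that splits C3, and C1 inhibitor, the product of Serping1, shuts C1r and C1s off. The liver makes most plasma complement, whereas C1q comes mainly from macrophages and related myeloid cells, and fibroblast-like cells of many tissues make C1r, C1s, C4, C3 and C1 inhibitor.

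The 250 bases before the annotated start of the canonical transcript are shown for the 6 genes whose mouse-by-mouse values separate groups below (build GRCm39, strand of the gene, 5′ to 3′, from the reference genome and GENCODE annotation). C1qa, C1qc and C1qb lie side by side on the minus strand of chromosome 4, and C4b lies on chromosome 17 near C2. Capitals mark matches, on either strand, to 4 motifs: GAAANNGAA, a pair of interferon-response half-sites; TTCNNNGAA, the gamma-activated site; GAGGAAG, a PU.1-type ETS site; and TGANTCA, an AP-1 site.
C1qa, chr4:136626162-136626411, minus strand: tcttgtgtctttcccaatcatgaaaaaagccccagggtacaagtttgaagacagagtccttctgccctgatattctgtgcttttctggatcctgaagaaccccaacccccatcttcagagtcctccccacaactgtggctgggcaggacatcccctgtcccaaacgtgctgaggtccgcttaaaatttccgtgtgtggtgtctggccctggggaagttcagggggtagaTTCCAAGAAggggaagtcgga
C1qb, chr4:136613512-136613761, minus strand: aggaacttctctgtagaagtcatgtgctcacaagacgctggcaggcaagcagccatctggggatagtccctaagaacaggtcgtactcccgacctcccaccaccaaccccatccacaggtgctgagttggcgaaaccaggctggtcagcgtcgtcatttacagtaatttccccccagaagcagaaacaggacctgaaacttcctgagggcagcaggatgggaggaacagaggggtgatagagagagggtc
C1qc, chr4:136620377-136620626, minus strand: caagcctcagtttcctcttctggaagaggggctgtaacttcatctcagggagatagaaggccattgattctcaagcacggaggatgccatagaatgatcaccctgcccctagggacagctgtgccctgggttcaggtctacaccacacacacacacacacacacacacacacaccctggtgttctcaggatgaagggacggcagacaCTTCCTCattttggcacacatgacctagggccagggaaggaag
C1ra, chr6:124489114-124489363, plus strand: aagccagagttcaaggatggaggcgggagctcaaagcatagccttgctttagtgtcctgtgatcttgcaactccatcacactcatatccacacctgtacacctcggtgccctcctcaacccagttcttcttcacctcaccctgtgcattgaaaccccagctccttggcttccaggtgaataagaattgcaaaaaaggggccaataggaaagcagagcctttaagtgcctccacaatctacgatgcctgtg
C4b, chr17:34962913-34963162, minus strand: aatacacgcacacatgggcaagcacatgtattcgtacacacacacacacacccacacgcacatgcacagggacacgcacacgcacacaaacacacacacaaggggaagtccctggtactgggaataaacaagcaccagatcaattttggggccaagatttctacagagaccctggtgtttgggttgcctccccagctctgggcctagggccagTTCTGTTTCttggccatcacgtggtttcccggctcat
Serping1, chr2:84605789-84606038, minus strand: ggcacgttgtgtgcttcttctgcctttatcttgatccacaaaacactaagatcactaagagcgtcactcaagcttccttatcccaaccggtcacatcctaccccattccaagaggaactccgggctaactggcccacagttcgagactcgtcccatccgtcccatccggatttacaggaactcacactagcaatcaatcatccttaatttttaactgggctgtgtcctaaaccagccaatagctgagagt
The C1qa window held 1 gamma-activated site 21 bases before the start, the C1qc window 1 reverse-strand PU.1-type site 43 bases before it, and the C4b window 1 reverse-strand pair of interferon-response half-sites 37 bases before it. The windows of C1qb, C1ra and Serping1, and those of C1s1, C2 and C3, held none of the 4 motifs. Of 21770 promoters of the same length, 7.7% held the gamma-activated site, 10.3% the PU.1-type site, 7.55% the interferon-response pair and 6.17% the AP-1 site, so each match is a description of these letters only.

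The libraries held between 20990655 and 73128220 counts on genes, with the smallest from AngII 4. The 9 genes together took 0.0307% to 0.217% of a library. The share of mitochondrial counts was 4% to 7.52% among Ctrl, 8.62% to 9.76% among LY, 9.83% to 25.5% among AngII and 10.1% to 20.2% among AngII+LY libraries, and the 3 libraries above 20% were AngII 3, AngII 4 and AngII+LY 1. Normalized counts are scaled to the mean effective library size after TMM normalization, and CPM values use the same library sizes. Log2 fold changes with their SE come from 1 edgeR quasi-likelihood fit of all 4 groups. To be called, a gene had to pass 0.05 after Benjamini-Hochberg adjustment over all tested genes and to differ by more than 0.5 on the log2 scale in either direction. Of cell type markers, 12 for fibroblasts and valve interstitial cells summed to 9840 to 26200 CPM and 8 for endothelium to 1510 to 3270 CPM, while 6 for neutrophils summed to 3.92 to 14.8 CPM and 6 for hepatocytes, the main source of plasma complement, to 1.09 to 3.01 CPM. Replicates are the separately numbered samples of a group, taken as 1 mouse each.

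Per kilobase of transcript, Serping1 was the most abundant of the 9 genes, with 144 ± 68 CPM per kb (SD, n = 14 libraries), above 97.4% of the tested genes. The C1q chains followed at 76.5 ± 52.5 for C1qa, 56.9 ± 38.2 for C1qb and 56.1 ± 33.9 for C1qc on the same scale. C3 stood at 40.9 ± 20.1 and C4b at 31.5 ± 23.3. The C1 proteases were lower, with 8.97 ± 2.86 for C1s1 and 8.32 ± 4.32 for C1ra, and C2 was the lowest at 2.5 ± 1.19. Neighbors in this order differed by less than the smaller of their SDs from C1qa through the other C1q chains and C3 to C4b, and between C1s1 and C1ra. The order of group means also varied, since in AngII mice C3 averaged 37.8 ± 21.5 CPM per kb (n = 4) against 33.6 ± 10.8 for C1qa, 28.1 ± 6.51 for C1qc and 25.3 ± 7.75 for C1qb. AngII 2, at 69.2, raised this C3 mean. C3 was above C1qa in AngII 2 and AngII 4 (29.4 against 18.6), and below it in AngII 1 (31.9 against 37.8) and AngII 3 (20.7 against 34.1). Near-identical copies limit some of these counts. Of the C1ra transcript, 50.8% of the 50-base windows also occur in other genes, chiefly C1rb, as do 24.5% of those of C1s1 in C1s2, 34.8% of those of C4b in C4a, and 57.6% of those of C2 in Gm20547, a gene model that overlaps it. Counts of these 4 genes are uncertain to that extent, while C1qa, C1qc, C3 and Serping1 shared no window with another gene and C1qb shared 1 of 2483. Group means of the copies were at most 3.624 normalized counts for C1rb, 5.098 for C1s2 and 43.19 for C4a, while no value is given for Gm20547. As the multi-mapping setting is not given either, these low counts do not show how reads in shared windows were assigned. Whether the counting used strand is not given in the sources used here, so reads of the 7 members that overlap a gene on the opposite strand cannot be told apart from reads of that gene. These are C1qb and C1qc with Gm69251, C1ra with Gm67279, C1s1 with C1rb, Gm16567 and Gm18840, C2 with Zbtb12 and Gm56901, C3 with Gm65552 and C4b with Gm65055.

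The genes of the C1q recognition molecule were the lowest in AngII mice. C1qa, which encodes the A chain, had normalized counts of 12973, 8630, 4719 and 2912 in the 4 Ctrl mice, 6767 and 5368 in the 2 LY mice, 2261, 2625, 2042 and 1115 in the 4 AngII mice, and 2606, 4422, 4383 and 3324 in the 4 AngII+LY mice. Every AngII mouse lay below every Ctrl and LY mouse, and 3 of 4 AngII+LY mice lay above every AngII mouse. C1qb, the B chain, had 21712, 15205, 8308 and 4577 in Ctrl, 12107 and 9659 in LY, 4235, 4224, 3683 and 1949 in AngII, and 4800, 7207, 7222 and 6202 in AngII+LY mice. Here the 4 AngII+LY mice stood above all AngII mice and inside the Ctrl range. C1qc, the C chain, had 14268, 10787, 6136 and 3447 in Ctrl, 8953 and 6634 in LY, 2917, 3427, 3193 and 1919 in AngII, and 3843, 5142, 5192 and 4309 in AngII+LY mice. AngII and Ctrl mice did not overlap for C1qc either, but by a margin of only 3427 against 3447, and Ctrl 4 was the lowest Ctrl mouse for all 3 chains.

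**Figure D1:**
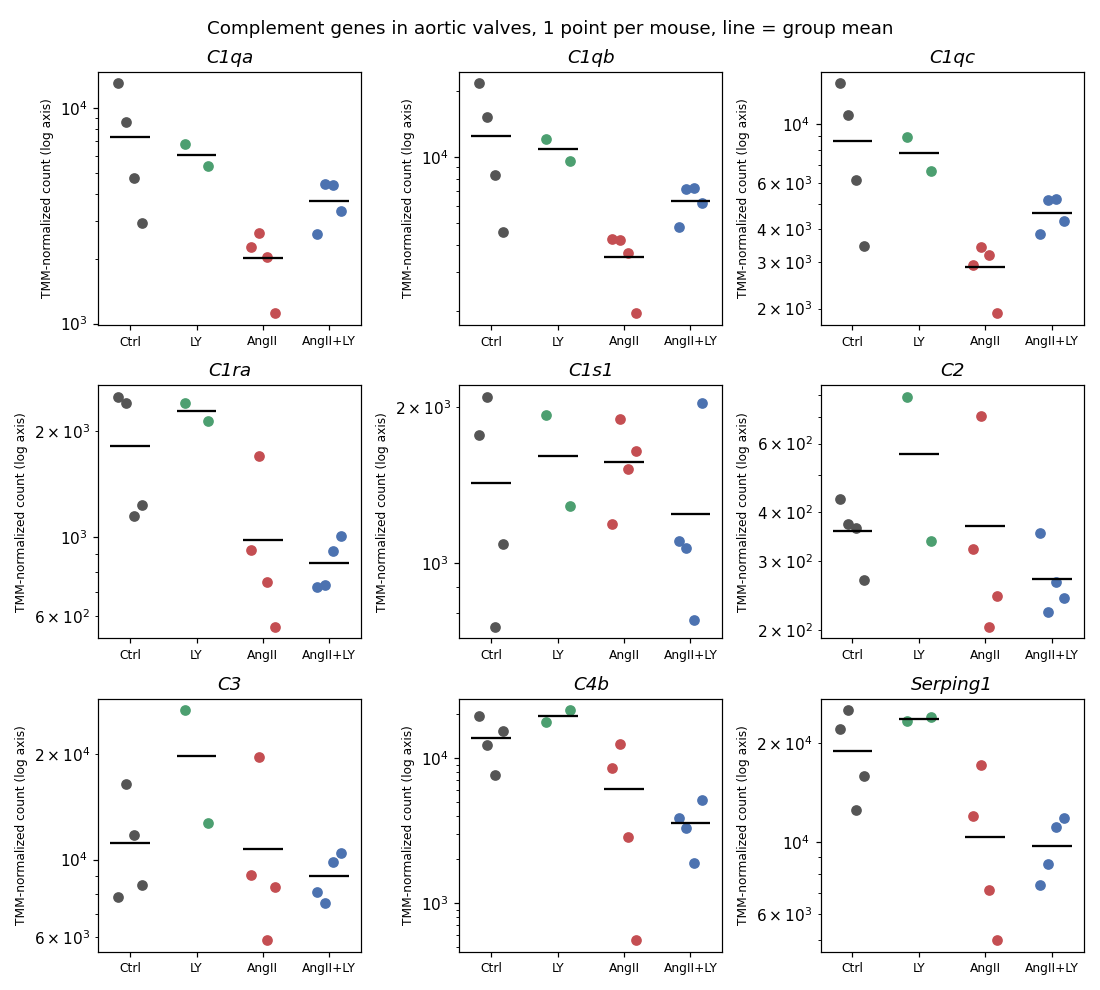
Normalized counts (log axis) of the 9 complement genes in each mouse by group (x axis), with a line at the group mean. The 4 AngII points of C1qa sit between 1115 and 2625, below the 4 Ctrl points at 2912 to 12973, and the spread within Ctrl is wide.

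As group means, C1qa stood at 7309 ± 4467 normalized counts in Ctrl (SD, n = 4), 6068 ± 989.6 in LY (n = 2), 2011 ± 643.7 in AngII (n = 4) and 3684 ± 880.4 in AngII+LY mice (n = 4). The log2 fold change of AngII against Ctrl was -1.86 (SE 0.40, 95% interval -2.71 to -1.01, edgeR adjusted p = 0.0573) for C1qa. For C1qb it was -1.82 (SE 0.40, interval -2.67 to -0.97, edgeR adjusted p = 0.0573) and for C1qc -1.59 (SE 0.35, interval -2.34 to -0.85, edgeR adjusted p = 0.0574). These 3 adjusted p-values lay just above the threshold, close to the smallest in the whole comparison, 0.0573, so no C1q gene was called. The verdict turned on the processing: DESeq2 called all 3 C1q genes and Serping1, limma called C1qa with an adjusted p of 0.0478, and edgeR called the 3 C1q genes with no filter on low counts or with a minimum mean count of 100. Leaving out Ctrl 4, AngII 1 or AngII 2 also brought these 3 genes past the threshold, with C1qa at -2.12 without Ctrl 4 and at -1.43 without Ctrl 1. Without the 3 libraries above 20% mitochondrial counts the log2 fold changes were -1.59 for C1qa, -1.56 for C1qb and -1.45 for C1qc. In that fit the edgeR unadjusted p was 0.00962, 0.0109 and 0.011, and the edgeR adjusted p was 0.49 for each. With each library corrected for gene GC content the log2 fold changes were -1.31, -1.48 and -1.10, with edgeR adjusted p of 0.172, 0.156 and 0.185, and the GC content of the 3 transcripts was 59.2%, 53.6% and 55.9% against a median of 49.9% over the tested genes.

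Macrophage markers moved beside C1q in part. Of 14 macrophage markers, 6 were lower in AngII than in Ctrl mice at an unadjusted p under 0.05 and none was higher, where 11.7% of all tested genes were lower and 13.4% higher. Their median log2 fold change was -0.55 against -0.06 over all genes, and none was called. Cd68, a lysosomal glycoprotein of macrophages, stood at -1.69 (unadjusted p = 0.0024), Tyrobp, an adaptor of myeloid receptors, at -1.44 (unadjusted p = 0.00197) and Csf1r, the receptor that macrophages need to survive, at -1.25 (unadjusted p = 0.00695). The resident macrophage markers Adgre1 at 0.38, Mrc1 at 0.28, Lyve1 at 0.51 and Mertk at -0.27 did not reach that threshold. The summed level of the 14 markers ranged from 212 to 601 CPM over the Ctrl mice, 330 to 388 over LY, 189 to 305 over AngII and 229 to 307 over AngII+LY mice, and no marker was at 0 throughout a group. Whether the markers account for the C1q difference was not tested, and in bulk tissue fewer macrophages and less C1q RNA per macrophage cannot be told apart.

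As a description chosen after the values were seen, the summed C1q level was set against the summed level of the 14 markers in each mouse. It was 93.7% to 148% of the marker sum for Ctrl, 119% to 130% for LY, 35.8% to 90.4% for AngII and 77.1% to 115% for AngII+LY mice. The AngII and Ctrl ranges did not overlap, and the lowest ratios were in AngII 3 and AngII 4, the libraries with 24.7% and 25.5% mitochondrial counts. The level of C1qa varied 11.6-fold between mice. The ratio of C1qb to C1qa lay between 1.57 and 1.87 in all 14 mice, with a coefficient of variation of 5.64%, so these chains kept nearly fixed proportions. The ratio of C1qc to C1qa varied more, with a coefficient of variation of 12.8%, and was 1.1 to 1.3 for Ctrl and 1.29 to 1.72 for AngII mice.

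**Figure D2:**
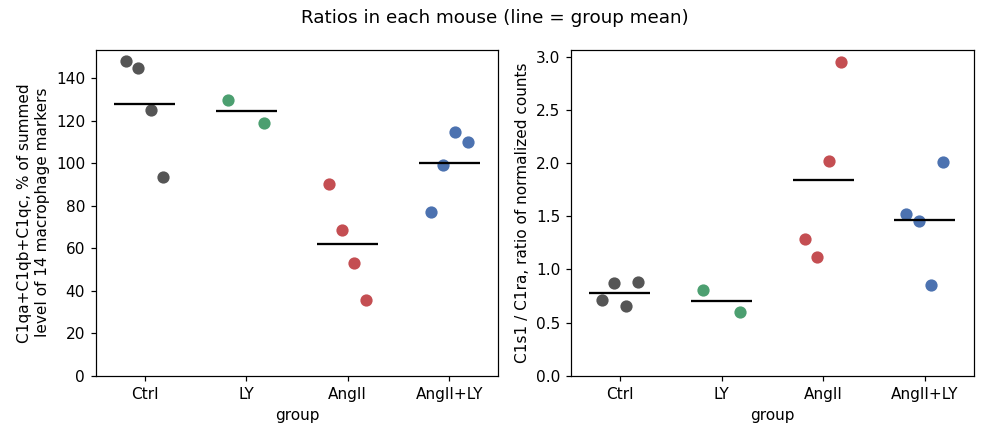
Left, summed C1qa, C1qb and C1qc as a percent of the summed level of 14 macrophage markers in each mouse, with a line at the group mean; right, the ratio of normalized counts of C1s1 to C1ra. C1q was 35.8% to 90.4% of the marker sum in AngII and 93.7% to 148% in Ctrl mice, and C1s1 exceeded C1ra in all 4 AngII mice and in no Ctrl or LY mouse.

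The C1 proteases showed unlike values across the groups. C1ra, the protease that is activated first when C1q binds, had normalized counts of 2494, 2393, 1146 and 1233 in Ctrl, 2404 and 2135 in LY, 922, 1701, 750 and 559 in AngII, and 725, 733, 913 and 1012 in AngII+LY mice. The 4 AngII+LY mice lay below all Ctrl mice, and 3 of 4 AngII mice did so too, with AngII 2 inside the Ctrl range. Its log2 fold change was -0.88 in AngII against Ctrl (SE 0.34, unadjusted p = 0.0208, edgeR adjusted p = 0.132) and -1.10 in AngII+LY against Ctrl (SE 0.34, unadjusted p = 0.00588, edgeR adjusted p = 0.288). C1s1, which cleaves C4 and C2, had 1769, 2092, 754 and 1091 in Ctrl, 1930 and 1291 in LY, 1192, 1897, 1517 and 1648 in AngII, and 1103, 1068, 777 and 2032 in AngII+LY mice. All groups overlapped for C1s1, with means of 1427 ± 612.2 in Ctrl, 1563 ± 293.5 in AngII and 1245 ± 544.3 in AngII+LY mice (SD, n = 4 each). The ratio of C1s1 to C1ra was 0.658 to 0.885 for Ctrl, 0.605 to 0.803 for LY, 1.12 to 2.95 for AngII and 0.852 to 2.01 for AngII+LY mice, again a description chosen after the values were seen. The highest ratios of AngII, 2.02 and 2.95, came from AngII 3 and AngII 4.

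C4b, the mouse gene for the C4 protein that C1s cleaves, varied most between mice, by 38.5-fold. Its normalized counts were 19573, 12185, 7583 and 15231 in Ctrl, 17608 and 21276 in LY, 8536, 12486, 2830 and 553 in AngII, and 3876, 3283, 1873 and 5161 in AngII+LY mice. Every AngII+LY mouse lay below every Ctrl and LY mouse, whereas the AngII mice split, with 2 inside the Ctrl range and AngII 3 and AngII 4 far below it. The log2 fold change of AngII+LY against Ctrl was -1.94 (SE 0.65, 95% interval -3.34 to -0.55, unadjusted p = 0.00987, edgeR adjusted p = 0.319) and that of AngII against Ctrl -1.16 (SE 0.64, unadjusted p = 0.0903, edgeR adjusted p = 0.271). With the 3 libraries above 20% mitochondrial counts left out, AngII against Ctrl came to -0.38 (unadjusted p = 0.392), AngII+LY against Ctrl to -1.97 (unadjusted p = 0.000481, edgeR adjusted p = 0.0928) and AngII+LY against AngII to -1.59 (unadjusted p = 0.00427, edgeR adjusted p = 0.198), where the fit of all libraries gave -0.78 (SE 0.63, unadjusted p = 0.236) for the last. That last value was -0.12 with limma (unadjusted p = 0.865), -0.17 without AngII 2 and -1.16 without AngII 4, and AngII against Ctrl was -1.82 with limma, -1.78 without AngII 2 and -0.78 without AngII 4. The C4b values of AngII mice therefore depend on which library is left out and on the tool.

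C2, which joins the C4 fragment to form the enzyme that splits C3, was the least abundant member. It had normalized counts of 433, 373, 364 and 268 in Ctrl, 790 and 339 in LY, 322, 704, 204 and 245 in AngII, and 354, 223, 265 and 242 in AngII+LY mice. The groups overlapped, and LY 1 and AngII 2 stood apart from all other mice on the high side. C3, where all complement pathways meet, had 7840, 16427, 11791 and 8485 in Ctrl, 26693 and 12759 in LY, 9061, 19653, 5880 and 8338 in AngII, and 8093, 7538, 9839 and 10431 in AngII+LY mice. LY 1 was the highest mouse for C3 too, followed by AngII 2 and Ctrl 2. In AngII against Ctrl the log2 fold change was -0.05 (SE 0.36, 95% interval -0.82 to 0.71, edgeR adjusted p = 0.946) for C3 and 0.04 (SE 0.40, interval -0.81 to 0.89, edgeR adjusted p = 0.963) for C2. With 4 mice a group, changes inside these intervals are not excluded. The 3 mice with the highest C3 also had the highest summed level of 7 mesothelial markers, with 955 CPM in LY 1, 677 in Ctrl 2 and 603 in AngII 2 against 133 to 384 in the other 11 mice. The part of mesothelial cells, which line the pericardial surface, in the C3 values was not tested.

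Serping1, the inhibitor, had normalized counts of 22116, 25231, 12545 and 15932 in Ctrl, 23430 and 24077 in LY, 12035, 17202, 7146 and 5003 in AngII, and 7364, 8560, 11066 and 11831 in AngII+LY mice. All 4 AngII+LY mice and 3 of 4 AngII mice lay below the lowest Ctrl mouse. The means were 18956 ± 5762 in Ctrl, 10347 ± 5436 in AngII and 9705 ± 2095 in AngII+LY mice (SD, n = 4 each) and 23754 ± 457 in LY mice (n = 2). The log2 fold change was -0.87 in AngII against Ctrl (SE 0.34, unadjusted p = 0.0215, edgeR adjusted p = 0.133) and -0.97 in AngII+LY against Ctrl (SE 0.34, unadjusted p = 0.0127, edgeR adjusted p = 0.334). Without the 3 libraries above 20% mitochondrial counts the value for AngII against Ctrl was -0.38 for Serping1 and -0.48 for C1ra, with unadjusted p of 0.223 and 0.231, while that of AngII+LY against Ctrl was -0.84 and -1.02.

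Across the 9 genes, AngII against Ctrl gave 5 with a lower level at an unadjusted p under 0.05 (the C1q genes, C1ra and Serping1) and 0 with a higher level, where 11.7% of all tested genes were lower and 13.4% higher at that threshold. The median log2 fold change of the 9 genes was -0.88, against -0.06 over all genes. Groups that did not overlap, with AngII lower, were seen for the 3 C1q genes and for 7.56% of all tested genes. No member was called by edgeR, and 0% of the 19145 tested genes were called, with 4815 at an unadjusted p under 0.05. DESeq2 called 4 members and 2648 genes, and limma 1 member and 252 genes. Genes of other lists were lower in the same comparison at that unadjusted threshold, with 0 higher in each list. They were all 6 smooth muscle markers (median log2 fold change -2.96), 6 of 17 interferon-stimulated genes (median -0.51) and 7 of 8 adipocyte markers (median -1.63). Smooth muscle markers summed to 209 to 399 CPM over AngII mice. In Ctrl mice their sum was 8070 in Ctrl 1 and 1260 in Ctrl 2, but 211 and 217 in Ctrl 3 and Ctrl 4. Interferon-stimulated genes summed to 585 to 999 CPM over AngII mice, against 1700 in Ctrl 2 and 619 to 663 in the other Ctrl mice. Adipocyte markers summed to 129 to 268 CPM over Ctrl and 28.7 to 99 over AngII mice. No marker of these lists was at 0 throughout a group, and their part in the complement values was not tested.

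**Figure D3:**
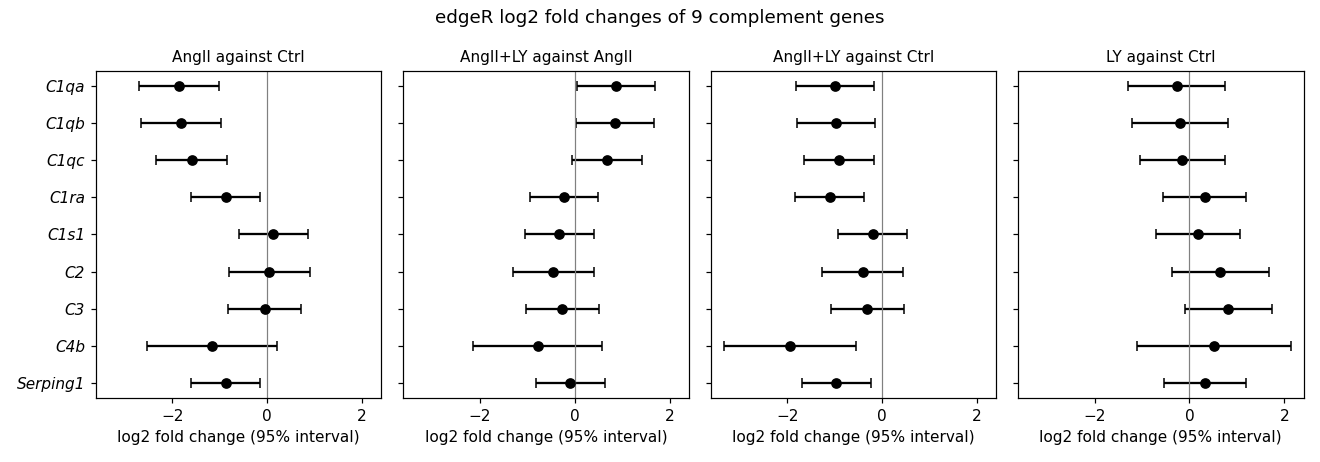
edgeR log2 fold changes (x axis) with 95% intervals of the 9 complement genes (y axis) in 4 comparisons. In AngII against Ctrl the intervals of the C1q genes, C1ra and Serping1 lie below 0, in AngII+LY against AngII those of C1qa and C1qb lie above 0, and in LY against Ctrl all 9 intervals include 0.

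C1q levels were higher in AngII+LY than in AngII mice, but no member was called. In AngII+LY against AngII the log2 fold change was 0.87 for C1qa (SE 0.39, 95% interval 0.04 to 1.70, unadjusted p = 0.0415, edgeR adjusted p = 0.204), 0.85 for C1qb (SE 0.39, interval 0.02 to 1.68, unadjusted p = 0.0447, edgeR adjusted p = 0.21) and 0.69 for C1qc (SE 0.34, interval -0.05 to 1.42, unadjusted p = 0.0642, edgeR adjusted p = 0.25). The other 6 members had values between -0.78 for C4b and -0.09 for Serping1, none at an unadjusted p under 0.05. So 2 of 9 members were higher and 0 lower at that threshold, where 10.1% of all tested genes were higher and 12.4% lower, and C1qb and C1qc were among the genes, 5.45% of all, with every AngII+LY mouse above every AngII mouse. No member was called by edgeR, DESeq2 or limma, and 0% of the tested genes were called by edgeR, with 4315 genes at an unadjusted p under 0.05. DESeq2 called 2062 genes and limma 437. The C1q difference was smaller after the GC correction, at 0.47, 0.62 and 0.32, and the unadjusted p was then 0.172, 0.092 and 0.307. Without the 3 libraries above 20% mitochondrial counts it was 0.74, 0.72 and 0.64 (edgeR unadjusted p = 0.168, 0.185 and 0.206). In that fit the 2 members at an unadjusted p under 0.05 were C2 at -1.06 (edgeR unadjusted p = 0.0308) and C4b at -1.59 (edgeR unadjusted p = 0.00427), both lower. None of the 14 macrophage markers passed an unadjusted p under 0.05 in either direction here. Their median log2 fold change was -0.01. Other cell type markers did differ in this comparison, with 6 of 12 fibroblast and valve interstitial markers lower and 0 higher (median -0.69) and 7 of 10 cardiomyocyte markers higher and 0 lower (median 1.24). Their summed levels were 17800 to 21900 CPM over AngII and 9840 to 13000 over AngII+LY mice for the former, and 6900 to 18600 and 18200 to 45000 for the latter, with no marker at 0 throughout a group. Their part in the C1q values was not tested.

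Set against Ctrl, AngII+LY mice were lower for all 9 members, 6 of them at an unadjusted p under 0.05, where 6.14% of all tested genes were lower and 4.89% higher. Beside C1ra, C4b and Serping1, these were C1qa at -0.99 (unadjusted p = 0.0233), C1qb at -0.97 (unadjusted p = 0.0249) and C1qc at -0.91 (unadjusted p = 0.0195), all with edgeR adjusted p of 0.354 or more. Without Ctrl 1, each of these 3 values was -0.56. The median log2 fold change was -0.97, against -0.02 over all genes. C1ra, C4b and Serping1 were 3 members with every AngII+LY mouse below every Ctrl mouse, as were 4.89% of the tested genes. No member was called by edgeR, DESeq2 or limma, and 0% of the tested genes were called by edgeR, with 2112 at an unadjusted p under 0.05, while DESeq2 called 343 genes and limma 0. Without the 3 libraries above 20% mitochondrial counts, 3 members were at an unadjusted p under 0.05 in place of 6. The fibroblast and valve interstitial markers moved the same way, with 9 of 12 lower at an unadjusted p under 0.05 and 0 higher, a summed level of 9840 to 13000 CPM in AngII+LY against 14600 to 24100 in Ctrl mice, and none at 0 throughout a group. The 10 cardiomyocyte markers summed to 18200 to 45000 in AngII+LY and 7040 to 27400 in Ctrl mice, with 6 of 10 higher and 0 lower. Of the 14 macrophage markers, 5 were lower and 0 higher (median -0.51), with a summed level of 229 to 307 in AngII+LY and 212 to 601 in Ctrl mice. The part of these cell types in the complement values was not tested.

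No difference between LY and Ctrl mice was detectable for the 9 genes. The 9 log2 fold changes of LY against Ctrl ran from -0.27 for C1qa to 0.82 for C3 (SE 0.43, 95% interval -0.09 to 1.74, unadjusted p = 0.0737), and edgeR adjusted p was 1 for each. No member was at an unadjusted p under 0.05, where 0.627% of all tested genes were higher and 0.763% lower, 266 genes in all. No member was called by edgeR, DESeq2 or limma, and 0% of the tested genes were called by edgeR, against 21 by DESeq2 and 0 by limma. With 2 LY mice the intervals were wide, spanning -1.11 to 2.13 for C4b. The C3 value rested on LY 1: it was 0.20 without that mouse and 1.26 without LY 2. The difference between the LY272015 effects with and without AngII was also tested, and 0 members were at an unadjusted p under 0.05, where 5.66% of all tested genes were higher and 7.64% lower. The values ran from -1.29 for C4b (SE 0.98) to 1.14 for C1qa (SE 0.62, unadjusted p = 0.0875), and C3 stood at -1.08 (SE 0.56, unadjusted p = 0.073). Single mice moved these, to 0.71 for C1qa without Ctrl 1, -0.45 for C3 without LY 1, -0.61 for C3 without AngII 2, and -0.68 for C4b without AngII 2 against -1.68 without AngII 4. No member and 0% of the tested genes were called by edgeR, with 2545 genes at an unadjusted p under 0.05, and DESeq2 called 0 members and 210 genes.

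Likeness between genes was described by Pearson's r of log2 levels over the 14 libraries, which share depth, mitochondrial share and tissue makeup as well as group. The C1q genes were the most alike, with r of 0.996 between C1qa and C1qb, 0.99 between C1qa and C1qc and 0.992 between C1qb and C1qc. C1ra, Serping1 and C4b were alike too, with 0.969 between C1ra and Serping1, 0.906 between C4b and Serping1 and 0.861 between C1ra and C4b. C1ra and Serping1 were not set apart from C1q, since C1ra stood at 0.798 to C1qa, 0.794 to C1qb and 0.8 to C1qc, and Serping1 at 0.785 to C1qa. C4b was less like C1q, at 0.662 to C1qa, 0.661 to C1qb and 0.626 to C1qc. With group means removed, C1ra was closer to C1qa (0.782) than to C4b (0.687). C2 and C3 stood at 0.833, but at 0.644 by Spearman's rank correlation, and LY 1 and AngII 2 were the highest mice for both genes. C1s1 was the least like the others, from 0.123 to C1qa up to 0.434 to C1ra.

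**Figure D4:**
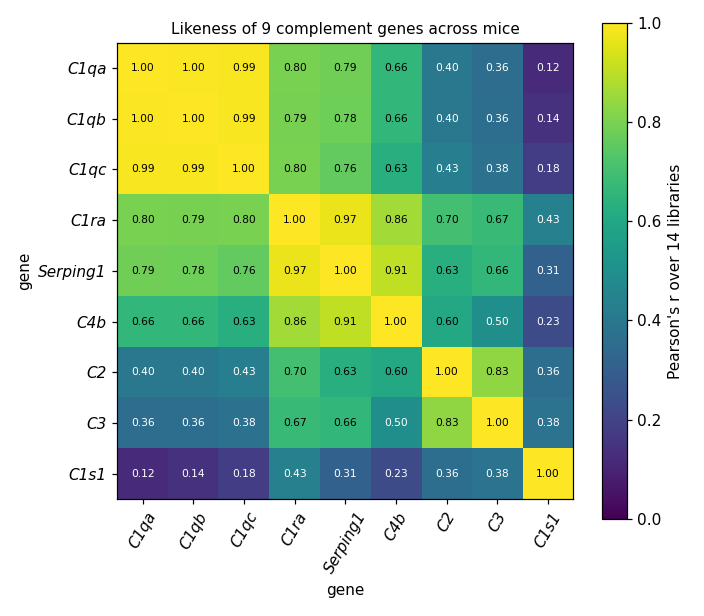
Pearson's r of log2 levels over 14 libraries for each pair of the 9 complement genes (both axes), on a color scale from 0 to 1. The C1q genes stand at 0.99 or more with each other, C1ra stands at 0.97 with Serping1 and about 0.80 with the C1q genes, and C1s1 lies between 0.12 and 0.43 with the others.

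Among 13178 protein-coding genes outside the 9, the genes most like C1qa were Spi1, which encodes the myeloid transcription factor PU.1 (r = 0.974), Cd68 (0.955) and Tyrobp (0.955). Spi1 also led for C1qb (0.965) and C1qc (0.968), followed by Zfp36, which encodes an mRNA decay factor (0.954 and 0.959). Next came Gstm1 for C1qb (0.95) and Snx8 for C1qc (0.956). With group means removed, the r of Spi1 was 0.939, 0.921 and 0.929 for C1qa, C1qb and C1qc. Serping1 was most like the matrix genes Comp (0.963) and Fbln1 (0.959) and the secreted ligand Gas6 (0.952), and C4b was most like Htra3 (0.963), which encodes a secreted protease, Fbln1 (0.959) and Tspan4 (0.951). For C1ra the leading genes were Dok1 (0.945), Srpx (0.934) and Fcrl2 (0.93). C3 was most like Cldn15 (0.941) and the mesothelial genes Upk3b (0.941) and Msln (0.905). C2 was most like Tat (0.864), Hivep2 (0.856) and Cldn15 (0.85), and C1s1 most like Ntm (0.853), Pdk3 (0.847) and Laptm4b (0.832).

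The rest of the complement system was taken from lists by role. Of 12 other genes of classical and lectin initiation, 5 passed the filter, and in AngII against Ctrl 2 were lower and 0 higher at an unadjusted p under 0.05. Over all tested genes, 11.7% were lower and 13.4% higher at that threshold. Fcna, a ficolin made by macrophages that starts the lectin pathway, stood at 319.4 ± 87.53 normalized counts in Ctrl and 117.4 ± 43.63 in AngII mice (SD, n = 4 each), with a difference on the log2 scale of -1.43 (SE 0.38, unadjusted p = 0.00212, edgeR adjusted p = 0.0619). Its Ctrl mice spanned 200.9 to 405.7 and its AngII mice 52.94 to 149.2, without overlap, as for 7.56% of all tested genes with AngII lower. Colec11, a soluble collectin, stood at -0.76 (unadjusted p = 0.012). Colec12, a membrane collectin, stood at 2710 ± 272.5 in AngII+LY mice against 6007 ± 2366 in AngII mice, or -1.15 on the log2 scale (SE 0.32, unadjusted p = 0.00325, edgeR adjusted p = 0.078). Its Ctrl mice averaged 7823 ± 3316, and AngII against Ctrl was -0.38 (edgeR unadjusted p = 0.255). In AngII+LY against Ctrl the value was -1.53 (SE 0.33, edgeR unadjusted p = 0.000357, edgeR adjusted p = 0.177).

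Of the 3 alternative pathway genes, Cfp alone passed an unadjusted p of 0.05 in AngII against Ctrl. Cfp encodes properdin, which stabilizes the alternative C3-splitting enzyme, and stood at 824.6 ± 362.4 in Ctrl and 309 ± 108.1 in AngII mice, or -1.41 as a log2 fold change (SE 0.38, unadjusted p = 0.0025, edgeR adjusted p = 0.0635). Cfd, the adipocyte-rich factor D, stood at -1.23 (unadjusted p = 0.081), beside 8 adipocyte markers of which 7 were lower and 0 higher at an unadjusted p under 0.05, with a summed level of 129 to 268 CPM in Ctrl and 28.7 to 99 in AngII mice. Of all tested genes, 11.7% were lower and 13.4% higher at that threshold. The part of fat tissue in the Cfd values was not tested. Of 7 terminal pathway genes 4 passed the filter. Hc, the mouse gene for C5, spanned 0 to 211.8 normalized counts over AngII and 0 to 3.831 over AngII+LY mice, so that its log2 fold change of -5.26 (unadjusted p = 0.00264, edgeR adjusted p = 0.0739) rests on very few counts. C6, C7 and C8g were low as well, with group means of at most 314.7.

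Soluble regulators of the later steps were compared next. Cfhr2 spanned 58.93 to 275.2 normalized counts over AngII and 0 to 11.49 over AngII+LY mice (log2 fold change -4.58, unadjusted p = 0.00111, edgeR adjusted p = 0.0597), so that no AngII+LY mouse reached the AngII range. Of all tested genes, 5.66% had every AngII+LY mouse below every AngII mouse. The Cfhr2 values rest on few counts, with group means of 18.42 in Ctrl, 131.1 in AngII and 5.241 in AngII+LY mice. In AngII against Ctrl its log2 fold change was 2.82 (edgeR unadjusted p = 0.0153). Vtn, vitronectin, which blocks the membrane attack complex, stood at 131.7 ± 23.97 in AngII and 441.9 ± 96.26 in AngII+LY mice (SD, n = 4 each, log2 fold change 1.74, unadjusted p = 0.0024, edgeR adjusted p = 0.0725). Of 8 soluble regulators other than Serping1, 6 passed the filter, and 1 was higher and 1 lower at an unadjusted p under 0.05 in AngII+LY against AngII. Over all tested genes, 10.1% were higher and 12.4% lower at that threshold. Clu, clusterin, was the most abundant at 689 CPM per kb and stood at -0.36 in AngII against Ctrl (unadjusted p = 0.128). Cpn2 and Cfi had group means of at most 36.95 and 189.6.

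Among membrane regulators, Cd55 had the lowest p in AngII against Ctrl. Cd55, decay-accelerating factor, which takes C3-splitting enzymes apart on the cell surface, stood at 8699 ± 5998 in Ctrl, 31785 ± 12985 in AngII and 13659 ± 6982 in AngII+LY mice (SD, n = 4 each). Its log2 fold change was 1.87 in AngII against Ctrl (SE 0.50, unadjusted p = 0.00232, edgeR adjusted p = 0.0629) and -1.22 in AngII+LY against AngII (SE 0.50, unadjusted p = 0.0274, edgeR adjusted p = 0.166). The AngII mice, at 23745 to 51151, lay above all Ctrl and AngII+LY mice. Of all tested genes, 7.46% had every AngII mouse above every Ctrl mouse, and 5.66% had every AngII mouse above every AngII+LY mouse. Cr1l, the rodent regulator also known as Crry, stood at 0.38 and -0.39 in the same comparisons (unadjusted p = 0.0394 and 0.033), while Cd59a, an inhibitor of the membrane attack complex, stood at 0.08 and -0.18. Of 8 membrane regulators 7 passed the filter, and 2 were higher and 0 lower at an unadjusted p under 0.05 in AngII against Ctrl. Over all tested genes, 13.4% were higher and 11.7% lower at that threshold. Among 11 receptors, 1 was higher and 2 were lower in that comparison. These were Cd93, an endothelial receptor once taken for a C1q receptor, at 1.04 (SE 0.29, unadjusted p = 0.00326), C5ar1, the C5a receptor of myeloid cells, at -1.19 (SE 0.37, unadjusted p = 0.00663) and Lrp1, an uptake receptor, at -0.90 (SE 0.34, unadjusted p = 0.0196). Calr, calreticulin, stood at -0.14 in AngII against Ctrl, 0.04 in AngII+LY against AngII and -0.30 in LY against Ctrl (edgeR unadjusted p = 0.467, 0.837 and 0.222). No gene of these 6 lists was called by edgeR in any comparison.

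**Figure D5:**
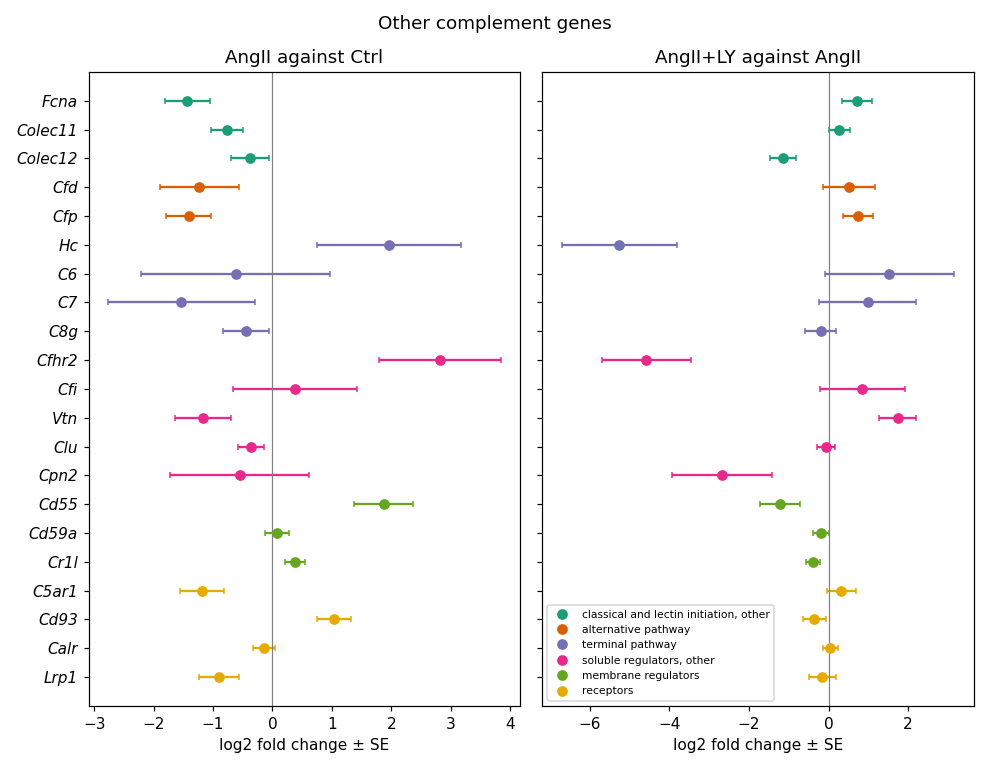
edgeR log2 fold changes with SE (x axis) of the other complement genes named in the text (y axis), colored by list, in AngII against Ctrl (left) and AngII+LY against AngII (right). Cd55 stands at 1.87 on the left and -1.22 on the right, and Fcna and Cfp at -1.43 and -1.41 on the left.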

How the data were processed

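RNA from mouse aortic valve leaflets was sequenced as 14 libraries, each taken as 1 mouse. The authors checked the reads with FastQC 0.12.1, trimmed them, aligned them to GRCm39 with HISAT2, counted them per gene with featureCounts and deposited 1 table. Its name speaks of normalized counts, but it holds whole numbers only and the library totals differ, so the deposited values were used as raw counts, one of the alternatives the design had foreseen. Strand and multi-mapping settings are not given in the sources used here. No column of the table was left unused.

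Groups came from the sample titles, Ctrl, LY, AngII and AngII+LY, with 4, 2, 4 and 4 libraries. The 9 members, the other complement lists and the marker lists were chosen with earlier results of these data known, and 1 gene of these lists is not reported here. Other complement genes are named where they pass an unadjusted p of 0.05 in a comparison of groups or are among the 2 most abundant of their list, and like genes are the 3 with the highest Pearson's r among protein-coding genes with a mean CPM of at least 1.

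Counts had to average 10 or more for a gene to be tested (19145 of 56941). The main test was edgeR's quasi-likelihood F-test (edgeR 4.0.16, R 4.3.3), after TMM normalization, in 1 fit of all 4 groups. Alternatives were DESeq2 1.42.0, limma 3.58.1 on log2(CPM + 0.5), the earlier quasi-likelihood method, DESeq2 size factors, no filter or a minimum mean count of 100, a fit of 1 pair of groups, the replicate number as a block, a loess GC correction with a span of 0.3, both together, each mouse left out, and, chosen with the values in view, the 3 libraries above 20% mitochondrial counts left out. Counts of 19145 genes were also simulated for all 4 groups, with the spread estimated from all 14 libraries. In these, 200 genes with a mean count above 200 were changed 4-fold, up or down, in AngII. For AngII against Ctrl, edgeR called 156 of the 200 and 5 unchanged genes, which does not cover genes with lower counts. P-values measure the spread between these libraries. Genes were placed with GENCODE annotation of GRCm39, in which 618 genes of the table had no match.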

Additional observations from a re-analysis of the deposited data

Results flagged for a closer look

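In groups of 4 mice, 10 of 132 sets of values held a mouse far from the other 3 by Dixon's test, where chance flags about 1 in 20 groups (5%). None of these was one of the 9 complement genes. Cfd stood at 3617 normalized counts in AngII+LY 1, the library of that group with 20.2% mitochondrial counts, against 738.7 to 829.5 in the other 3 mice. C7 was at 626.4 in AngII+LY 4, against 0 to 97.49, and Cfi at 229.6 in AngII+LY 2, against 5.759 to 34.48. Cpn2 was at 66.18 in AngII 4, against 9.304 to 15.67, and at 13.41 in AngII+LY 4, against 0 to 1.373. Cd55 was at 51151 in AngII 4, against 23745 to 27119, so that the other AngII mice also lay above every Ctrl mouse. Calr was lowest in Ctrl 3, at 15609 against 18652 to 19238. Summed markers stood apart in Ctrl mice, with mesothelial markers at 677 CPM in Ctrl 2 against 213 to 274, smooth muscle markers at 8070 in Ctrl 1 against 211 to 1260, and interferon-stimulated genes at 1700 in Ctrl 2 against 619 to 663.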

How the results depend on the processing

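In AngII against Ctrl, 0 members were called, and this count was 4 with DESeq2, 1 with limma, 3 without a filter on low counts and 3 with a minimum mean count of 100. Leaving out 1 mouse gave 0 to 3. Counts of members at an unadjusted p under 0.05 moved as well. In AngII against Ctrl (5) it was 3 without the 3 libraries above 20% mitochondrial counts and 3 to 6 with 1 mouse left out. In AngII+LY against AngII (2) it was 0 with the GC correction and 0 to 2 with 1 mouse left out. Without the 3 libraries it stayed at 2, but for C2 and C4b, both lower, in place of C1qa and C1qb, both higher. In AngII+LY against Ctrl (6) it was 3 with limma, 3 without the 3 libraries and 3 to 6 with 1 mouse left out. In LY against Ctrl (0) it was 1 with the GC correction and 0 to 1 with 1 mouse left out. For the difference between the LY272015 effects (0) it was 1 without a filter, 2 with the GC correction, 3 without the 3 libraries and 0 to 3 with 1 mouse left out. Apart from AngII against Ctrl, the count of called members stayed 0 under every alternative run. The cause of these moves was not tested.

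Some log2 fold changes, none of them called, turned direction. In AngII against Ctrl, C1s1 was -0.03 with the GC correction, C2 was -0.10 with limma, and C3 was 0.27 with the GC correction and 0.36 without the 3 libraries. In AngII+LY against AngII, Serping1 was 0.04 with limma. In LY against Ctrl, C1qb was 0.03 and C1qc 0.03 with limma. With 1 mouse left out, AngII against Ctrl ranged from -0.08 to 0.37 for C1s1, -0.48 to 0.24 for C2 and -0.52 to 0.20 for C3. AngII+LY against AngII ranged from -0.41 to 0.18 for C1ra, -0.65 to 0.08 for C2, -0.46 to 0.21 for C3 and -0.32 to 0.27 for Serping1, each turning without AngII 2. AngII+LY against Ctrl ranged from -0.54 to 0.05 for C1s1. LY against Ctrl ranged from -0.53 to 0.16 for C1qa, -0.47 to 0.22 for C1qb, -0.42 to 0.20 for C1qc, -0.14 to 0.44 for C1s1 and -0.08 to 1.14 for C2.

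Samples with the same replicate number did not deviate together, with correlations of their deviations from the group means of -0.263 to 0.217 over the comparisons, so the numbers are not taken as pairs. With the replicate number as a block, 2 members were at an unadjusted p under 0.05 for the difference between the LY272015 effects, C2 was -0.01 in AngII against Ctrl and Serping1 was 0.06 in AngII+LY against AngII. With the replicate block and GC correction, 1 member was at that threshold in AngII+LY against AngII and C3 was 0.23 in AngII against Ctrl. No call changed under the block. The smallest library, AngII 4, still held 167 raw counts of C4b and 337 of C1qa.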
